A study of Danio rerio with 4 samples.

Results

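Cholesterol is built from acetyl-CoA in a long chain of reactions. The mevalonate steps make isoprene units, which are joined into squalene and closed to lanosterol, and a last group of enzymes trims lanosterol to cholesterol. In mammals the genes of the chain are switched on together by the SREBP transcription factors when membranes are short of sterol, and glial cells supply neurons with cholesterol carried on apolipoprotein E. The genes described here are 10 enzymes of this chain, msmo1, cyp51, hmgcs1, sc5d, lbr, hmgcra, sqlea, fdft1, idi1 and dhcr7. Probes were taken where the gene name in the scanner files, current or older, or the current symbol of their RefSeq identifier was 1 of these. The array held 9 such probes for 7 of the 10 genes, out of 21495 probes and 8753 named genes; sqlea, fdft1 and idi1 had no probe by this rule. The genes were chosen because of their differences in the comparison given here, so those differences are a description and carry no test.

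The data are gene expression levels in GFP-positive retinal cells of adult zebrafish, measured on 4 single-colour oligonucleotide arrays of 1 slide, each with its own sample. Muller glia, the radial glia of the retina, came from uninjured retinas of gfap:gfp fish, which carry GFP under the gfap promoter (n = 2 arrays, fish aged 7 months, labelled 0 days post injury). Progenitors derived from Muller glia came from 1016 tuba1a:gfp fish, with GFP under the tuba1a promoter, sampled 4 days after a poke with a needle of 30 gauge (n = 2 arrays, from fish of 7 and 8 months). Injury and transgenic line change together between glia and progenitors and cannot be told apart, and p-values measure only the spread between arrays described as duplicates, which may be technical.

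Signals are given as the software's processed intensity, averaged over the 2 spots of each probe. Differences are log2, progenitors minus glia, after each array was set to its 75th percentile (4289 and 4455 for glia, 4816 and 4899 for progenitors). On this scale the median of the 7081 genes tested stood at -0.11. Spike-in controls were dimmer on the progenitor arrays (median 2923 and 3070, against 5444 and 6145), and scaling on them moved that median to 0.99. Marker genes also moved, counted here by limma calls at adjusted p below 0.05, which made 27.5% of all genes tested higher and 40.4% lower. Of 9 tested microglia and leukocyte markers 8 rose. Their summed level was 15.3 to 15.4 in glia and 35.0 to 37.4 in progenitors, in units of the 75th percentile, with mpx not above background on any array. All 7 tested surface epithelium markers fell (summed level 19.7 on both glia arrays, against 1.36 to 1.43), also with spike-in scaling. All 11 tested cone markers (596 to 615, against 338 to 340) and all 5 tested erythrocyte markers (71.1 to 71.8, against 34.4 to 35.2) fell too. With spike-in scaling, however, 3 cone markers were lower and 3 higher, and 3 erythrocyte markers were lower. Of 4 tested rod markers 3 fell and 1 rose (177 to 178, against 157 to 161). Of 4 tested retinal pigment epithelium markers 2 fell and 1 rose (16.9 to 17.0, against 14.1 to 14.6), with tyr not above background on any array. The retinal pigment epithelium shares were near those of all genes. With spike-in scaling, where most genes tested were called higher, all 4 rod and all 4 retinal pigment epithelium markers were higher. Of 9 tested Muller glia markers 5 rose and 1 fell (231 to 236, against 308 to 313), with 8 higher and 0 lower under spike-in scaling. Of 8 tested progenitor markers 7 rose and 1, mki67, fell (13.3 to 13.5, against 38.3 to 38.8), with 8 higher under spike-in scaling. With the mean of each gene's probes 6 glia markers were higher and 0 lower, and 8 progenitor markers higher and 0 lower. The fall of mki67 thus depended on the probe that stood for it. With normexp, another background correction, 5 glia and 6 progenitor markers were higher and 0 of either list lower. Glial markers were thus present in both groups. The part of these markers in the differences given here was not tested.

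Most measured enzymes of the chain were lower in progenitors: msmo1 and cyp51 by about 4-fold, hmgcs1 and sc5d by about 3.5-fold and dhcr7 by 2.21-fold. The nuclear membrane protein and sterol reductase lbr went the other way and was 1.46-fold higher. The remaining gene, hmgcra, gave no usable signal. All 6 measured genes were well above background on all 4 arrays, so none of them passed the filter on dim probes through 1 group alone. In bulk RNA, fewer cells that express a gene and less RNA per cell cannot be told apart.

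Among the mevalonate enzymes, hmgcs1, the HMG-CoA synthase that opens the mevalonate steps, was measured by 1 probe on an unplaced sequence of danRer2 (1549910 to 1549969, plus strand). Its signal was 32274 and 32981 in glia and 10528 and 9992 in progenitors. Both progenitor arrays lay far below both glia arrays. The groups did not overlap, which was so in either direction for 88% of all genes tested. The scaled log2 level was 2.90 ± 0.02 in glia and 1.08 ± 0.07 in progenitors (SD, n = 2), a difference of -1.82 ± 0.05 (SE, n = 2 against 2).

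The HMG-CoA reductase gene hmgcra, which in mammals sets the pace of the whole chain, had 1 probe (danRer2 chromosome 5, 49918727 to 49920344, plus strand). Its signals of 8.07, 8.67, 4.80 and 6.85 were not well above background on any array, so no difference is given for it. The probe was matched to hmgcra only through an older name, hmgcr1a. Its dim signal therefore does not show that the gene was silent.

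The lanosterol demethylase gene cyp51 starts the trimming of lanosterol. Its probe (danRer2 unplaced sequence, 153765736 to 153765795, minus strand) read 5516 and 5394 in glia and 1449 and 1505 in progenitors. Here too the groups did not overlap. The level went from 0.32 ± 0.06 to -1.72 ± 0.02 (SD, n = 2), a difference of -2.04 ± 0.05.

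The next methyl groups are removed by msmo1, a sterol methyl monooxygenase listed in the files under its older name sc4mol. Its probe (danRer2 chromosome 1, 19016915 to 19016974, minus strand) read 13608 and 13942 in glia and 3777 and 3653 in progenitors. Again the groups did not overlap. The level went from 1.66 ± 0.01 to -0.39 ± 0.05 (SD, n = 2), a difference of -2.04 ± 0.05 or 4.12-fold.

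The sterol desaturase gene sc5d, which introduces a double bond in the sterol ring near the end of the chain, had 2 probes on chromosome 21 of danRer2, both on the plus strand. The brighter (16702991 to 16703050) read 4151 and 4441 in glia and 1393 and 1352 in progenitors. The dimmer (16702487 to 16702546) read 1425 and 1426 in glia and 449 and 458 in progenitors. The 2 probes, which lie at different places in the gene, gave nearly the same difference, -1.80 ± 0.05 and -1.80 ± 0.04, or 3.48-fold and 3.49-fold.

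The reductase gene dhcr7 makes cholesterol itself in the last step of one arm of the chain. Its probe (danRer2 chromosome 7, 10672905 to 10672964, minus strand) read 3435 and 3473 in glia and 1762 and 1706 in progenitors. The groups did not overlap, but the difference of -1.15 ± 0.05 was the smallest among the 5 lower genes, 0.65 closer to 0 than that of sc5d. By comparison msmo1 and cyp51 differed from each other by 0.01, and hmgcs1 and sc5d by 0.02, less than the standard error of either gene.

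The protein made from lbr has a pair of known roles in mammals. Its membrane part is a sterol reductase that acts just after cyp51, and its nuclear part ties B-type lamins and heterochromatin to the inner nuclear membrane. Its 2 probes lie on the plus strand of danRer2 chromosome 20. The brighter (40317495 to 40317554) read 5386 and 5691 in glia and 8791 and 9214 in progenitors. The dimmer (listed over 40308051 to 40308887) read 375 and 342 in glia and 606 and 594 in progenitors. Both probes were higher in progenitors on both arrays, by 0.55 ± 0.04 and 0.59 ± 0.08 (SE, n = 2 against 2).

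**Figure D1:**
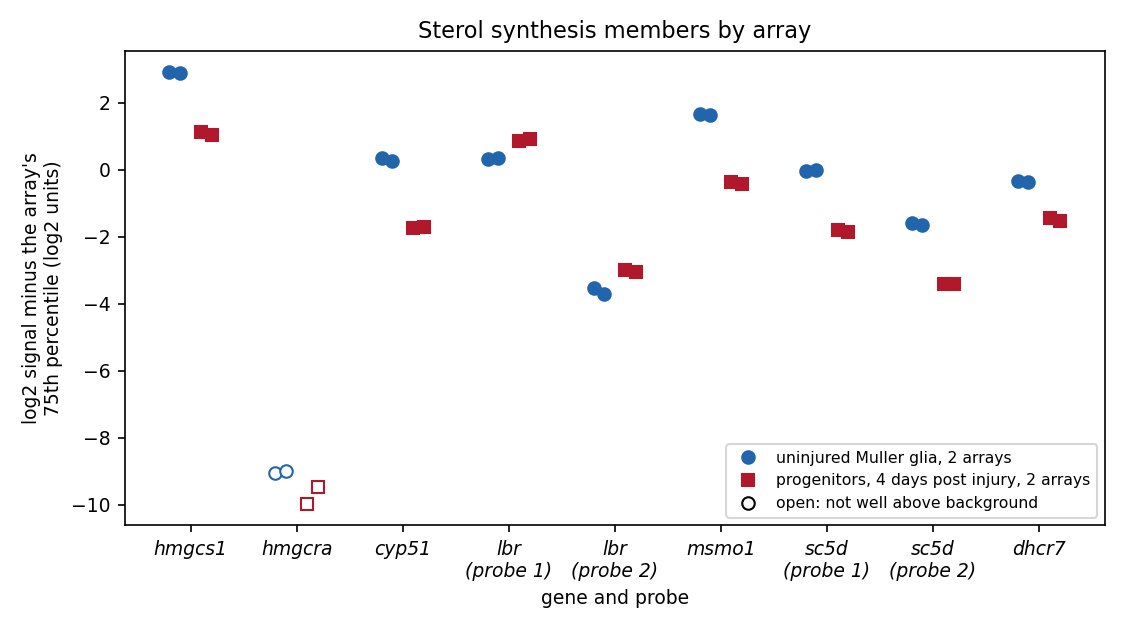
Scaled log2 signal (vertical axis, log2 units relative to the array's 75th percentile) of each member probe (horizontal axis) on the 2 glia arrays (circles) and the 2 progenitor arrays (squares). Open symbols, for hmgcra, are not well above background; hmgcs1, cyp51, msmo1, sc5d and dhcr7 lie lower in progenitors and both lbr probes lie higher, while levels of different probes cannot be compared.

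The 6 measured genes had a median difference of -1.81, against -0.11 for all genes tested. Of the 6, 5 were at least 2-fold lower and 0 at least 2-fold higher, where 4.11% and 7.72% of all genes tested were; since the members were chosen on these values, nothing is read from these shares. In 6 of 6 the groups did not overlap (5 lower and 1 higher), which was so for 88% of all genes, 53.1% lower and 34.9% higher. In the order of all 7081 differences, msmo1 and cyp51 held places 87 and 88 from the lowest, hmgcs1 and sc5d places 104 and 105, and dhcr7 place 230. For lbr, 15.0% of genes had a higher value. These places do not depend on how whole arrays are scaled. Under spike-in scaling, the setting that moved all genes upwards, msmo1 stood at -0.94, cyp51 at -0.94, hmgcs1 at -0.72, sc5d at -0.70 and dhcr7 at -0.04, while lbr stood at 1.65.

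**Figure D2:**
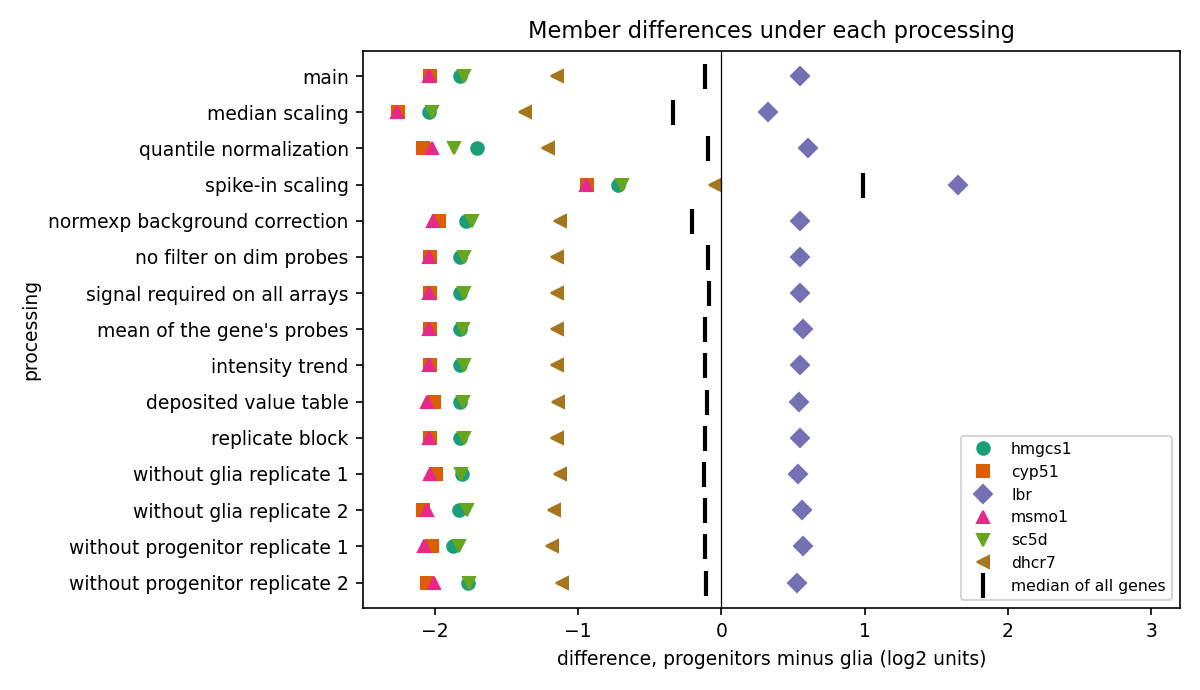
Difference between progenitors and glia (horizontal axis, log2 units) of the 6 measured members under the main processing and each of the 14 alternatives (vertical axis), with the median of all genes as a black bar. The 5 lower genes stay left of 0 and lbr right of 0 in every row, with dhcr7 nearest to 0 at -0.04 under spike-in scaling.

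The other enzymes of the chain were then set beside these genes. Of 19 further enzymes and partners listed, 8 had a probe and 7 were tested; fdps, the farnesyl diphosphate synthase gene, was not above background on both arrays of either group. Of the 7, 5 fell, 0 rose and 2 did not pass (limma, adjusted p below 0.05), against 40.4% of all genes lower, 27.5% higher and 67.9% in either direction. Their median was -0.66, which is -0.55 from the median of all genes under any scaling of whole arrays. It turned to 0.44 with spike-in scaling, where 0 were lower and 5 higher. In that setting most genes tested were called higher, and 2.48% of all genes called were lower.

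The mevalonate decarboxylase gene mvda read 5165 and 5503 in glia and 2475 and 2472 in progenitors. It fell by 1.26 ± 0.04 on the log2 scale (limma, adjusted p = 0.000238), and stood at -0.16 once scaled on spike-ins, where it did not pass. The sterol isomerase gene ebp, which works between msmo1 and sc5d, read 4011 and 4169 in glia and 1898 and 1753 in progenitors. Its difference was -1.32 ± 0.06 (limma, adjusted p = 0.000509), and its second probe gave -1.31. With spike-in scaling ebp stood at -0.22 and did not pass either. These 2 of the 7 tested lay at least 2-fold lower, as did 4.11% of all genes tested.

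The other enzymes that passed fell by less than 2-fold. The mevalonate kinase gene mvk read 2112 and 2221 in glia and 1381 and 1311 in progenitors, a difference of -0.84 ± 0.05 (limma, adjusted p = 0.000963). The acetoacetyl-CoA thiolase gene acat2, whose product feeds hmgcs1, read 31373 and 32701 in glia and 22467 and 22635 in progenitors, a difference of -0.66 ± 0.04 (adjusted p = 0.000874). The sterol reductase gene tm7sf2 read 5857 and 6152 in glia and 4272 and 4150 in progenitors, a difference of -0.66 ± 0.05 (adjusted p = 0.00118). With spike-in scaling mvk, acat2 and tm7sf2 turned to 0.26, 0.44 and 0.44.

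The products of tm7sf2 and lbr carry out the same reduction in mammals, and the 2 genes differed in direction. The lbr difference exceeded that of tm7sf2 by 1.21, or 2.32-fold, a gap that does not move when a whole array is rescaled and that was not tested. At the start of the chain hmgcs1 was lower, while the second HMG-CoA reductase gene hmgcrb did not pass (-0.12 ± 0.07, limma, adjusted p = 0.167). These genes serve different steps, and both values lay below 0. The hmgcs1 difference less that of hmgcrb was -1.70, or 3.24-fold, a gap that was not tested either. The hmgcrb signal was 1256 and 1265 in glia and 1215 and 1359 in progenitors, so its groups overlapped before scaling but not after it. It passed as lower with median scaling (-0.35) and with quantile normalization (-0.25), and turned to 0.98 with spike-in scaling. The reductase gene cyb5r3, which passes electrons to the desaturases, did not pass either (0.06 ± 0.04, adjusted p = 0.264); it turned to -0.16 with median scaling and stood at 1.16 with spike-in scaling.

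**Figure D3:**
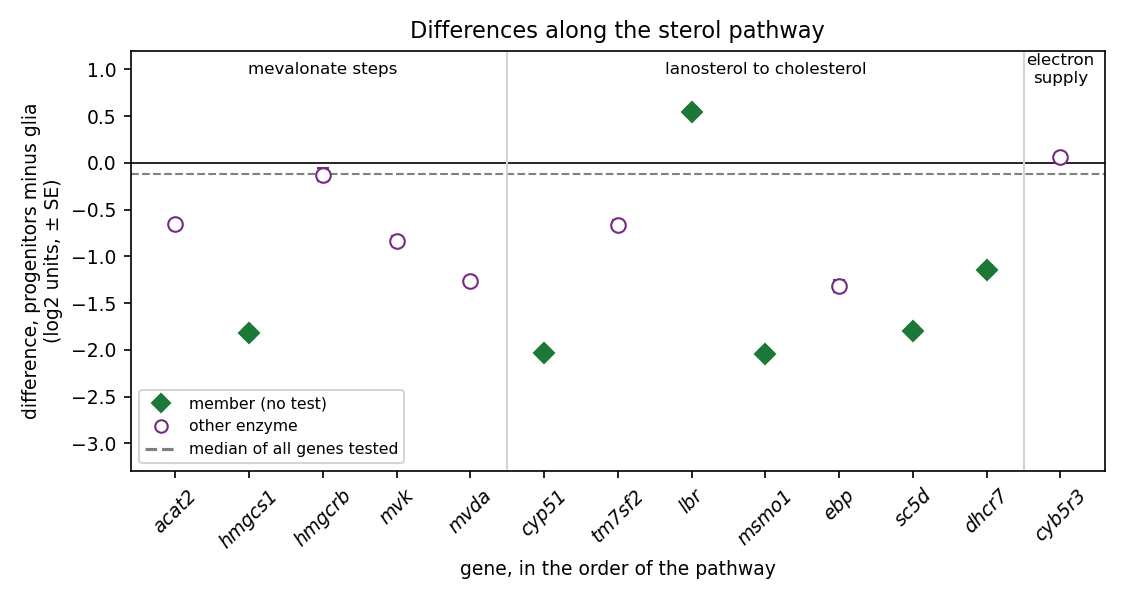
Difference between progenitors and glia (vertical axis, log2 units, bars are SE with n = 2 against 2, mostly smaller than the symbols) for 13 genes in the order of the sterol chain (horizontal axis), members as filled diamonds and other enzymes as open circles. Of the 5 mevalonate genes all lie below 0 and of the 7 genes from lanosterol to cholesterol 6 lie below 0, lbr being the exception. The median of all genes tested (dashed line) also lies below 0, at -0.11, and hmgcrb at -0.12 lies close to it. Since the members were chosen on these differences, nothing is read from these counts. With spike-in scaling acat2, mvk, tm7sf2 and hmgcrb turn above 0.

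The prenyl branch draws on the same isoprene units to make coenzyme Q and to anchor proteins in membranes. Of 15 listed genes of the prenyl branch 7 were tested, 3 fell and 0 rose, with a median of -0.16. The share that fell was close to the 40.4% of all genes. With spike-in scaling, where most genes tested were called higher, 0 were lower and 7 higher. The gene pdss2, for a subunit of the synthase that makes the coenzyme Q side chain (-0.37 ± 0.04, limma, adjusted p = 0.00411), the Rab prenyltransferase subunit gene rabggtb (-0.50 ± 0.09, adjusted p = 0.0103) and the geranylgeranyl diphosphate synthase gene ggps1 (-0.25 ± 0.05, adjusted p = 0.0153) were the 3 that fell. Scaled on spike-ins they were at 0.73, 0.60 and 0.85. The calls of rabggtb and ggps1 ended with normexp, another background correction, and without glia replicate 1, that of ggps1 also without glia replicate 2 or progenitor replicate 2, and the second rabggtb probe gave -0.17.

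Of 25 listed genes that sense sterol and control SREBP, 10 were tested, with a median of -0.18. Of these, 5 were called lower and 1 higher (40.4% and 27.5% of all genes). With spike-in scaling, where most genes tested were called higher, 0 were lower and 9 higher. The SREBP genes srebf1 and srebf2 and the listed gene scap were not among the 10 tested, so the counts do not cover them. Among the 5 called lower is the SREBP protease gene mbtps2, for which no fold can be given. It was not well above background on either progenitor array (25.2 and 20.6 in glia, 12.7 and 10.8 in progenitors). With signal required on all arrays, which leaves it out, 4 of 9 were lower and 1 higher. Another of the 5, mylipa, was called lower by its brighter probe (-0.26 ± 0.04, limma, adjusted p = 0.00911). Its second probe was called higher (0.33 ± 0.08, adjusted p = 0.0278). The feedback gene insig1, itself switched on by SREBP in mammals and binding the SREBP escort protein, read 7306 and 7101 in glia and 5540 and 5932 in progenitors. Its difference was -0.48 ± 0.06 (limma, adjusted p = 0.00432), against 0.62 with spike-in scaling. The ubiquitin ligase gene amfra (-0.45 ± 0.04, adjusted p = 0.00232) and the haem-binding protein gene pgrmc2 (-0.40 ± 0.04, adjusted p = 0.00275) also fell, but scaled on spike-ins they were at 0.65 and 0.70. The only higher call was the retinoid receptor gene rxrga (0.22 ± 0.05, adjusted p = 0.0251). That call ended when any 1 of the 4 arrays was left out, with normexp, when dim probes were kept and with the replicate block, and its value turned to -0.0056 with median scaling.

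Of 53 listed genes of sterol uptake and transport, 17 were tested, 4 rose and 6 fell, shares near those of all genes (27.5% and 40.4%). The list median was -0.04, and 0.0031 without glia replicate 2. With spike-in scaling, where most genes tested were called higher, 15 were higher and 0 lower. The lipoprotein gene apoc1 read 89083 and 91336 in glia and 254732 and 240622 in progenitors, a 2.47-fold difference (limma, adjusted p = 0.000385). The lipoprotein lipase gene lpla rose by 0.80 ± 0.06 (adjusted p = 0.00115). The adaptor gene ldlrap1a, needed in mammals for uptake of low-density lipoprotein, rose by 0.66 ± 0.06 (adjusted p = 0.00237), a call that ended with normexp. The apolipoprotein E gene apoeb was higher on all 10 of its probes, by 0.19 to 1.16, with 0.49 for the brightest. The probe with 1.16 is placed on chromosome 21 of danRer2, the brightest on chromosome 16. In the other direction the phospholipid transfer protein gene pltp (-1.04 ± 0.05, adjusted p = 0.00057), the oxysterol-binding protein gene osbpl7 (-0.80 ± 0.06, adjusted p = 0.00111) and the lipoprotein receptor gene vldlr (-0.47 ± 0.04, adjusted p = 0.00216) fell. With spike-in scaling they were at 0.064, 0.30 and 0.63. The low-density lipoprotein receptor gene ldlra did not pass (-0.28 ± 0.15, adjusted p = 0.173). Microglia markers rose over the same arrays, as given above, and their part in the increases of apoc1, lpla and apoeb was not tested.

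Genes listed for the conversion of sterols to oxysterols, bile acids and steroids had 3 higher and 4 lower of 9 tested among 28 listed. These shares were again near the 27.5% and 40.4% of all genes. With spike-in scaling, where most genes tested were called higher, 7 were higher and 1 lower. Their median of 0.05 had no stable sign. It was -0.18 with median scaling, -0.15 with quantile normalization, -0.24 with normexp, -0.0085 with the mean of each gene's probes, -0.24 without glia replicate 1 and -0.05 without progenitor replicate 1. The aromatase gene cyp19a1b, known in fish as the brain aromatase of radial glia, read 10204 and 10671 in glia and 1928 and 1909 in progenitors. At -2.60 ± 0.04 (limma, adjusted p = 6.7e-05, 6.04-fold) it was lower by more than any member. The bile acid genes cyp7a1 (-1.33 ± 0.07, adjusted p = 0.000621) and hsd3b7 (-0.56 ± 0.05, adjusted p = 0.00155) fell too; with spike-in scaling cyp7a1 did not pass (-0.23) and hsd3b7 turned to 0.54. The cholesterol hydroxylase gene ch25h, whose product restrains SREBP in mammals, read 6787 and 7605 in glia and 14696 and 13888 in progenitors. It rose by 0.84 ± 0.07 (adjusted p = 0.00157), with its second probe at 0.89. The hydroxylase genes cyp46a1.4 and cyp46a1.2 rose by 0.33 ± 0.04 and 0.31 ± 0.05 (limma, adjusted p = 0.00502 and 0.00678), but both calls ended with median scaling and with normexp, where cyp46a1.4 turned to -0.060.

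Fatty acid synthesis, the other lipid route under SREBP control, had 5 higher and 7 lower of 16 tested among 31 listed. These shares were near the 27.5% and 40.4% of all genes. The listed genes fasn, acly, acaca and acacb were not among the 16 tested, so the counts do not cover them. The acaca probe was not well above background on any array. The list median was -0.03, and 0.02 without progenitor replicate 1. With spike-in scaling, where most genes of the whole array were called higher, 15 of the tested genes were higher and 1 lower. The lipogenic regulator gene mid1ip1a read 857 and 944 in glia and 39.2 and 39.3 in progenitors, a difference of -4.67 ± 0.05 (limma, adjusted p = 5.45e-05). The fatty acid desaturase gene fads2 (-0.59 ± 0.05, adjusted p = 0.0018, with all 5 probes between -0.76 and -0.59) and the elongase gene elovl4b (-0.39 ± 0.04, adjusted p = 0.00291) fell, and turned to 0.52 and 0.71 with spike-in scaling. The acyl-CoA synthetase genes acsl4b (0.94 ± 0.07, adjusted p = 0.00126) and acsl4a (0.89 ± 0.06, adjusted p = 0.00106) and the elongase gene elovl7a (0.65 ± 0.05, adjusted p = 0.00138) rose, the call of elovl7a ending with normexp.

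The nuclear envelope list, set beside lbr for its role at the inner nuclear membrane, had 6 called higher and 5 called lower of 11 tested among 28 listed (27.5% and 40.4% of all genes), with a median of 0.25. That median was 0.03 with median scaling and also without the filter on dim probes. With spike-in scaling, where most genes tested were called higher, 11 were higher and 0 lower. The B-type lamin genes lmnb1 and lmnb2, whose proteins bind lbr in mammals, were among those that rose. The lmnb1 probe read 5167 and 5621 in glia and 9206 and 9253 in progenitors, a difference of 0.62 ± 0.05 (limma, adjusted p = 0.00137), with its second probe at 0.63. The lmnb2 probe read 107 and 131 in glia and 488 and 532 in progenitors, a difference of 1.96 ± 0.10 (adjusted p = 0.000575) whose call ended with normexp at 1.04. The lamina-associated protein gene tmpoa rose by 0.76 ± 0.06 (adjusted p = 0.00127). Lower genes were tmem43 (-0.58 ± 0.04, adjusted p = 0.00139), a membrane protein of the nuclear envelope, and another lamin gene, lmnl3 (-0.63 ± 0.09, adjusted p = 0.00612), whose call ended with normexp. With spike-in scaling tmem43 and lmnl3 turned to 0.52 and 0.47. The heterochromatin protein gene cbx5, counted among the 5 lower, passed the filter through glia alone and was not well above background in progenitors, so only a bound of at least 1.06-fold lower can be given. Of the other heterochromatin protein genes of the list, cbx3b (-0.40 ± 0.07, limma, adjusted p = 0.0102) and cbx1b (-0.20 ± 0.06, adjusted p = 0.0493) fell. In contrast cbx1a rose (0.25 ± 0.05, adjusted p = 0.0124). With signal required on all arrays 6 of 10 were higher and 4 lower.

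**Figure D4:**
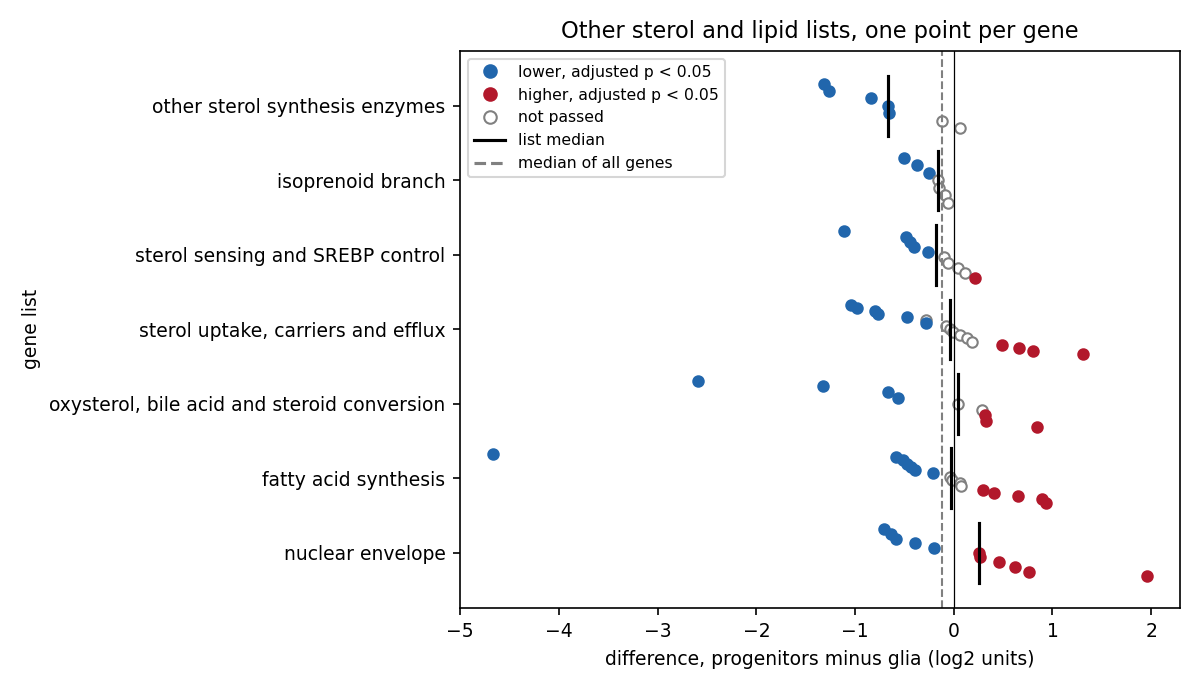
Difference between progenitors and glia (horizontal axis, log2 units) of every tested gene of the 7 lists (vertical axis), coloured by call (limma, adjusted p below 0.05), with list medians as black bars and the median of all genes as a dashed line. The list of other sterol synthesis enzymes has its median at -0.66 and those of the other 6 lists lie between -0.18 and 0.25. With spike-in scaling all 7 medians lie above 0, as does that of all genes, at 0.99.

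To describe which genes ran most like each member over the 4 arrays, the scaled log2 values of each gene were centred on their own mean and compared by root mean square distance with 6054 named genes. The 2 closest to sc5d were nfe2 (0.01) and hmgcs1 (0.03), and the 2 closest to hmgcs1 were sc5d (0.03) and nfe2 (0.03). The 2 closest to cyp51 were epb41b (0.04), which belongs to the erythrocyte marker list and stood at -1.97, and msmo1 (0.04), and the 2 closest to msmo1 were dkk1b (0.04) and cyp51 (0.04). For dhcr7 they were capn2b and cpt1b (both 0.02), and for lbr rpl13 (0.0039) and b2ml (0.0062). With 2 groups of 2 arrays this measure mostly reflects the size of the difference between the groups.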

How the data were processed

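Per the file headers, Feature Extraction 9.5.3.1 produced the spot intensity values; version 9.1 is named in the submitters' processing notes. It subtracted background, removed spatial trends array by array and put a surrogate in place of low intensity values, also per the file headers. Arrays were not adjusted to each other. The deposited intensity values of a second file equalled the background-subtracted signal of 1 spot per probe within a relative tolerance of 0.001 for 100% of values, so it is linear and not normalized between arrays. That file served as an alternative.

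Here the 1417 control spots and outlier spots were left out, and log2 signals were set to each array's 75th percentile and averaged over 2 spots. A probe was tested if well above background on both arrays of at least 1 group (16596 of 21495). Progenitors were set against glia in limma 3.58.1 (R 4.3.3), with Benjamini-Hochberg adjustment over all probes tested and a threshold of 0.05; the script was tested on simulated data. Each SE is that of the limma fit, which draws a probe's variance towards that of all probes tested. The probe with the highest mean stood for its gene. Genes were named through RefSeq identifiers in the GRCz12tu gene list (for 7323 probes), current symbols (620) or older names (2352); for 1617 the files' own name was kept and 9583 were unnamed. Coordinates are those of the scanner files, on danRer2. Figures were drawn with matplotlib 3.10.9 in Python 3.11.15.

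Members and lists were chosen with earlier results of these data known. By rule the text names all members, every tested enzyme of the other sterol list, and up to 3 genes per direction of each other list by adjusted p. The genes apoeb, ldlra, mbtps2, mylipa, cbx1a, cbx1b, cbx3b and mki67 were added after their values were seen. Where 1 group was not well above background, the fold is a bound, taken against the lowest signal well above background or the probe's own signal where that is higher. Sequences were not used here. Alternatives are given at the end. The number of arrays limits the precision.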

Additional observations from a re-analysis of the deposited data

How the results depend on the processing

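Under all 14 alternatives hmgcs1, cyp51, msmo1, sc5d and dhcr7 kept values below 0 and lbr stayed higher in progenitors. With spike-in scaling dhcr7 stood at only -0.04, less than its standard error of 0.05 in the main processing. Apart from spike-in scaling, msmo1 ranged from -2.26 to -2.01, cyp51 from -2.26 to -1.97, hmgcs1 from -2.04 to -1.71, sc5d from -2.02 to -1.74, dhcr7 from -1.37 to -1.11 and lbr from 0.33 to 0.60. With spike-in scaling 0 members, against 5, were at least 2-fold lower. Over all genes, 1949 were higher and 2862 lower. Median scaling gave 1294 higher, normexp 823 and 1151, and spike-in scaling 6619 and 168; the share of lower genes among those called was 59.5%, and 76.8% and 2.48% with median and spike-in scaling. Without 1 array at a time the counts ran from 1537 to 1652 higher and from 1995 to 2356 lower. The cause of these changes was not tested.

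Spike-in scaling gave these counts higher and lower: other sterol enzymes 5 and 0, prenyl branch 7 and 0, sterol sensing 9 and 0, uptake and transport 15 and 0, sterol conversion 7 and 1, fatty acid synthesis 15 and 1, nuclear envelope 11 and 0. Of the genes named by rule, it turned the fitted value of 19 above 0, cbx5 among them although it was not measured above background in progenitors: acat2 0.44, mvk 0.26, tm7sf2 0.44, hmgcrb 0.98, pdss2 0.73, rabggtb 0.60, ggps1 0.85, amfra 0.65, pgrmc2 0.70, insig1 0.62, pltp 0.064, osbpl7 0.30, vldlr 0.63, hsd3b7 0.54, fads2 0.52, elovl4b 0.71, tmem43 0.52, cbx5 0.39 and lmnl3 0.47. Median scaling gave 7 lower prenyl genes, 0 higher sensing genes and 1 higher conversion gene, and turned cyb5r3 to -0.16 and rxrga to -0.0056. Normexp gave 1 lower prenyl gene, 0 higher and 3 lower sensing genes, 1 higher conversion gene, 3 higher and 4 lower fatty acid genes and 3 higher and 2 lower envelope genes, and turned cyp46a1.4 to -0.060. The deposited table gave 3 lower envelope genes, and without the filter on dim probes 0 sensing genes were higher. Leaving out 1 array gave 1 to 3 lower prenyl genes (1 without glia replicate 1) and 0 to 1 higher sensing genes. Same-numbered samples share only a number: their deviations correlated at r = 0.06 over 16596 probes. With the replicate number as a block 0 sensing genes were higher, rxrga having an adjusted p of 0.0567, and 4 envelope genes were lower. Apart from rxrga no call changed among the genes named by rule. Dim signal limits hmgcra, fdps, acaca, cbx5 and mbtps2.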
